A study of Mus musculus with 6 samples.

Results

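The genes described here are the solute carrier (Slc) genes that were clearly expressed in mouse embryonic stem (ES) cells carrying a control vector, followed into cells that make FLAG-tagged CTCFL. Members were all genes with a platform symbol of the form Slc, digits, letters and digits, read by their brightest probe set, whose mean over the 3 control arrays was at least 9 on the log2 scale. Of 350 measured genes with such a symbol, 108 were members, out of 19937 genes tested. Slc2a3, Slc22a18 and Slc25a31 were left out by the same rule. The control signal chose the members, so their control levels, 9.02 to 13.7, are a description and no finding.

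Expression was measured on 6 Affymetrix Mouse Gene 1.0 ST arrays, 3 per group, and values are log2 signal. Both groups were male ES cells cloned from 46C, a line of 129P2/OlaHsd background with GFP knocked into Sox1, kept in serum (10%) and selected with puromycin (1 µg/ml). One group held the control vector and the other a vector for FLAG-CTCFL, the mouse form of the CTCF paralog that is normally made in male germ cells. The labels speak of stable transfection but not of how many lines were made, so p-values reflect the spread among these arrays, which may be technical. Precision is limited by the number of arrays.

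Ctcfl, which checks the labels, read 7.70, 7.85 and 7.89 in controls and 11.33, 11.22 and 11.24 in FLAG-CTCFL cells. The 12 ES cell markers all lay above the background of olfactory and vomeronasal receptor genes (95th percentile 7.63), with control means of 10.8 to 13.6. Of these, 7 were lower in FLAG-CTCFL cells and 1 higher, and their mean signal went from 12.32 to 11.99. Among genes of any kind with a control mean of at least 9, as these markers have, 34.5% were lower and 16.1% higher. Over all genes tested 18.4% were lower and 12.5% higher, 30.9% in either direction. Of 10 fibroblast markers 1 was higher and 1 lower (mean signal 8.23 and 8.21), and of 7 trophoblast markers 3 were higher and 0 lower in limma (7.94 and 8.15). Of 7 endoderm markers 2 were higher and 1 lower (8.498 and 8.51), as were 2 and 1 of 6 neural markers (8.35 and 8.43). Their part in the results on carriers was not tested.

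Solute carriers are membrane proteins that move nutrients, ions, cofactors and metabolites across the plasma membrane and the membranes of mitochondria, Golgi, lysosomes and vesicles. They work by facilitated diffusion, by exchange or by coupling to gradients of sodium or protons. ES cells divide quickly and are known to depend on high uptake of glucose and of amino acids such as glutamine and threonine. Family numbers in the symbols follow sequence kinship, and a family often, but not always, shares a substrate.

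Carrier genes fell more often than they rose in FLAG-CTCFL cells. Of the 108 members, 49 were lower and 15 higher at an adjusted p under 0.05 in limma, and 44 did not pass. The shares of members lower (45.4%) and higher (13.9%) stand against 34.5% and 16.1% of the 6875 genes of any kind with a control mean of at least 9, and against 18.4% and 12.5% of all genes tested. In either direction 59.3% of members were called, against 50.6% of the genes at that level and 30.9% of all genes. At least 1.5-fold changes were found for 13 members lower and 2 higher, where 6.79% and 0.669% of genes at that level, and 2.77% and 0.787% of all genes, moved as far. Without overlap between the arrays of both groups, 52 members lay lower and 22 higher. The same held for 39.3% and 20.6% of genes at that level (59.8% in either direction). The median log2 fold change of the members was -0.11, beside -0.04 for the genes at that level and 0.0037 for all genes.

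The choice of members by the control arrays leans these counts towards falls. All 13 members whose FLAG-CTCFL mean lay under 9 were lower, while 5 Slc genes that crossed the level upwards (Slc25a10, Slc30a1, Slc35a2, Slc35b2 and Slc4a2, named after their values were seen) were all higher and are not members. With members chosen by the mean of all 6 arrays, 45 of 107 were lower and 18 higher, where 31.7% and 18.2% of all genes at that mean were called. With members chosen by the FLAG-CTCFL mean instead, which leans the other way, 36 of 100 fell and 20 rose (median -0.03). The balance also moved with the scaling of the arrays. After quantile normalization 43 of the 108 members were lower and 30 higher, and the share of rises among the calls over all genes went from 40.5% to 54.4%. Just inside the level stood Slc38a6 (control mean 9.02), Slc30a7 (9.05) and Slc18b1 (9.06), and just outside Slc35e3 (8.99), Slc25a30 (8.97) and Slc17a9 (8.97), with log2 differences of 0.07, 0.08, -0.82, -0.11, -0.31 and -0.77.

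**Figure D1:**
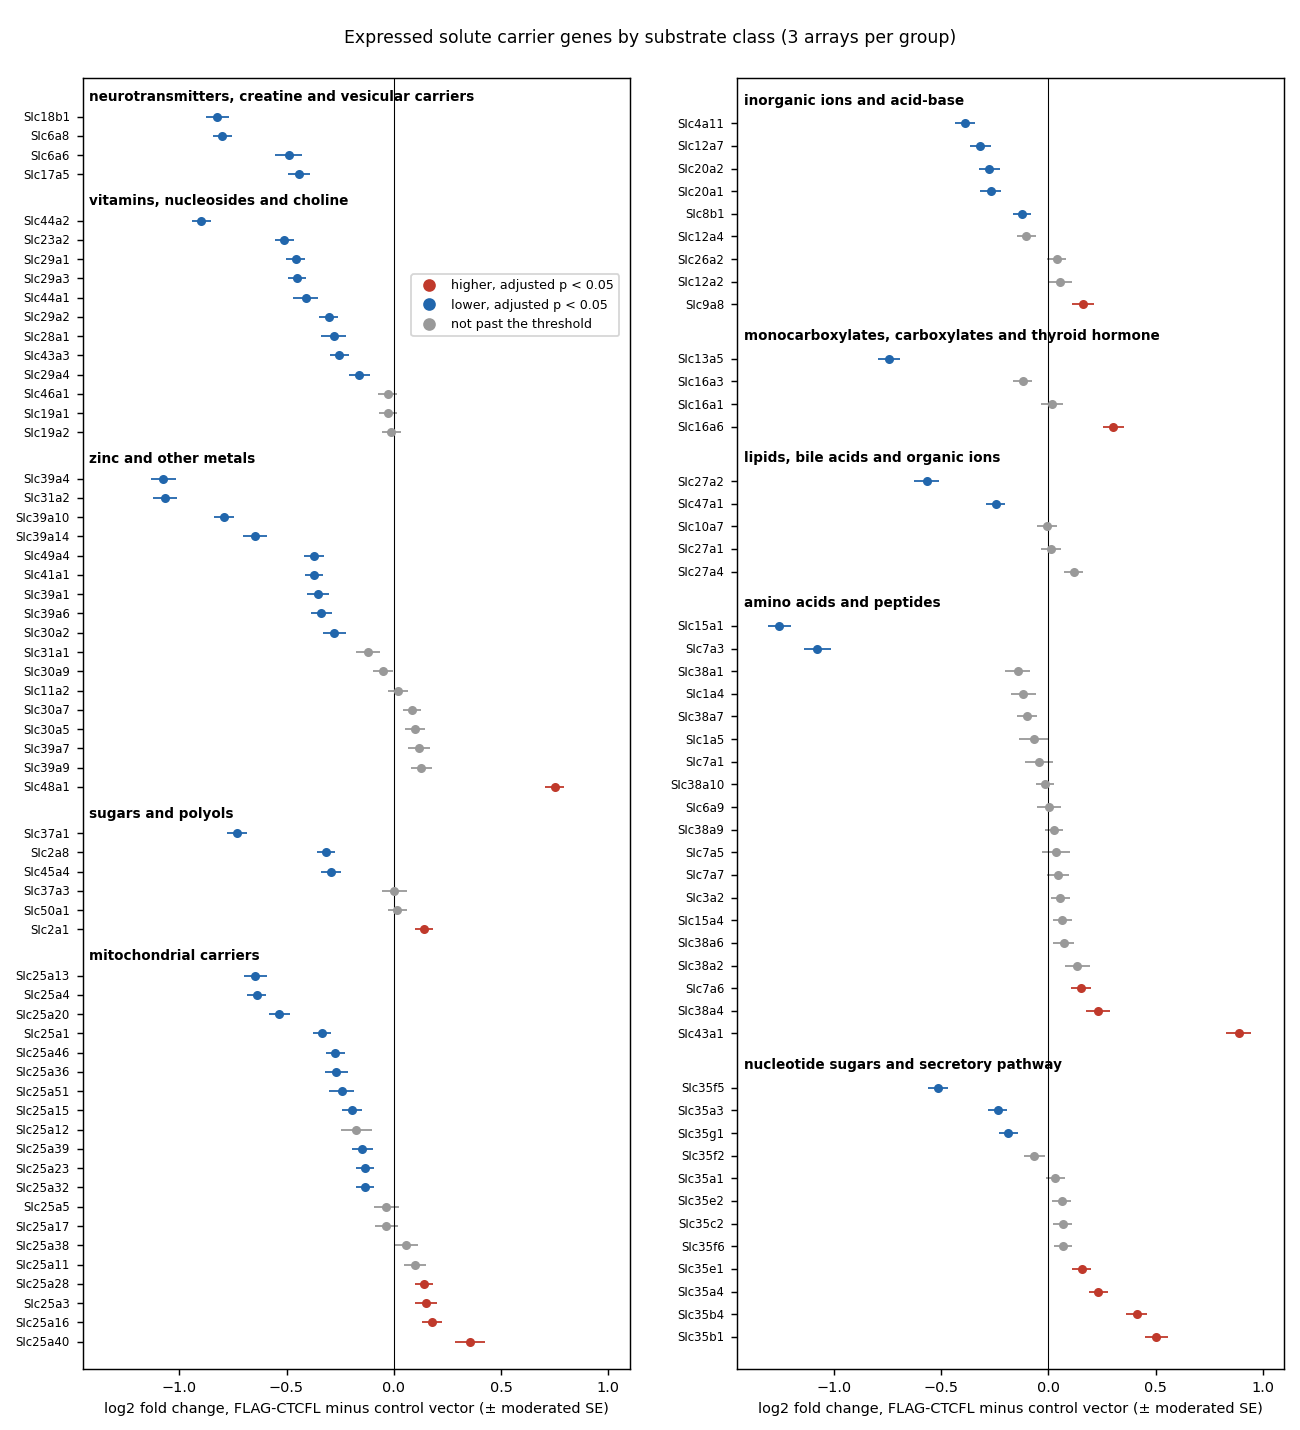
Log2 fold change (FLAG-CTCFL minus control vector, x axis) of all 108 expressed solute carrier genes, with the moderated SE as bars, grouped by substrate class and coloured by the limma call. Points of the vitamin, nucleoside and choline class all lie at or left of 0, while those of the amino acid class gather around 0 with a few far to either side.

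Promoter windows of RefSeq (GRCm38.p6, 250 bases before to 50 after a gene's start) were at hand for 83 of the 108 members, 115 windows in all. They were searched on both strands for the core of the CTCF motif, GGNGGCAG, for a longer CTCF consensus that contains this core, and for the core of the ATF4 amino acid response element, TGATGNAA. The CTCF core was present in 13 of 83 members (15.7%), in 16.1% of the 15562 tested genes with a window and in 14.1% of all 27025 genes of the promoter table. The ATF4 core was present in 4 members (4.82%), against 3.62% and 4.51%, and the CTCF consensus in 1 member (1.2%), against 9 and 11 genes. Shown are the windows of Slc13a5, the member with the full consensus, of Slc44a2, which fell and holds the core 2 times in the window shown and once in another, of Slc43a1, the largest rise, and of Slc7a7, which holds the ATF4 core and did not pass the test while its neighbours were lower. Matched letters are in capitals.
Slc13a5 (chr11:72266555-72266854, minus strand): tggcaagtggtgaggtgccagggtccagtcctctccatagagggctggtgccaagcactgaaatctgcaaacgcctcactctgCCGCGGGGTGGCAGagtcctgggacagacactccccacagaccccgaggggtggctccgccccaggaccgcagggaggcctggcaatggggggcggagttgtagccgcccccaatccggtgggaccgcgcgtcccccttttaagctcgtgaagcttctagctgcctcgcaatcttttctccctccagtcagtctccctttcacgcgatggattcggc
Slc44a2 (chr9:21337578-21337877, plus strand): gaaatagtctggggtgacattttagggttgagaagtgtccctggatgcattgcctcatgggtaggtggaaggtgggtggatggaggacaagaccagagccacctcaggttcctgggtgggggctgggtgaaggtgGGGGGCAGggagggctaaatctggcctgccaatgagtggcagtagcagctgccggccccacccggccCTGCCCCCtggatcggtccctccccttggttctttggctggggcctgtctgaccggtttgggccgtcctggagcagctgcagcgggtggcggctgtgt
Slc43a1 (chr2:84840073-84840372, plus strand): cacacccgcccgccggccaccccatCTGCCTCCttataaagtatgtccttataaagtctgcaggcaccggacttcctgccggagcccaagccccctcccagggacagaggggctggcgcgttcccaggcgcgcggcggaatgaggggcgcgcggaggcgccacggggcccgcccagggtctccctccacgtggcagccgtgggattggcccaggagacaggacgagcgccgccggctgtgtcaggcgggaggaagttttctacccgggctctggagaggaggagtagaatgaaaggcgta
Slc7a7 (chr14:54417895-54418194, minus strand): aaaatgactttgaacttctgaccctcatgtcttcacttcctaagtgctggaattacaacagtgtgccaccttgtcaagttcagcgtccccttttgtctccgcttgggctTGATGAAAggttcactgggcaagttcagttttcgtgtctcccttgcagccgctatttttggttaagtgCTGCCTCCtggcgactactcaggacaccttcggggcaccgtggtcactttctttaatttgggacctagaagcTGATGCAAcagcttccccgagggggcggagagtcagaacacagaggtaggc
A match is a description of the letters only. Positions are counted from the gene's start and are negative before it. In Slc13a5 the consensus begins at -167 on the gene's strand. In Slc44a2 the core begins at -115 on the gene's strand and at -48 on the other. In Slc43a1 it begins at -225 on the opposite strand. In Slc7a7 the ATF4 core begins at -141 and at -1, both on the gene's strand, and the CTCF core at -73 on the opposite strand. Of the 12 members with a window that were higher 2 held the CTCF core, of the 34 lower 7, and of the 37 not called 4.

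Carriers of amino acids and peptides formed a class in which few genes were called. Of 19 members 3 were higher and 2 lower, and the median was 0.03. In either direction 26.3% were called, beside 50.6% of all genes with a control mean of at least 9. The large changes concerned Slc43a1, which rose, and Slc15a1 and Slc7a3, which fell. The scaling moved the smaller calls, since 6 were higher and 2 lower after quantile normalization, and array weights gave 4 and 7. Those weights leaned on FLAG-CTCFL replicate 3 (5.77, against 0.41 and 0.32 for replicates 1 and 2).

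Slc43a1 codes for a sodium-independent carrier of large neutral amino acids (LAT3). It read 9.35, 9.53 and 9.56 in the control vector cells against 10.43, 10.36 and 10.30 with FLAG-CTCFL. All FLAG-CTCFL arrays lay above all control arrays. Slc43a1 rose by 0.89 ± 0.06 on the log2 scale (moderated SE, 3 arrays a group), or 1.85-fold, at a limma adjusted p of 1.05e-07, the largest rise of any member. Smaller rises were measured for Slc38a4, a system A carrier that is known as an imprinted gene (0.23 ± 0.06, adjusted p = 0.00635), and for Slc7a6, a light chain of the cationic and neutral exchanger y+LAT2 (0.15 ± 0.05, adjusted p = 0.0212). The call of Slc7a6 was lost without control replicate 2 (adjusted p = 0.0863) or 3 (0.0720), without FLAG-CTCFL replicate 3 (0.115) and with all probe sets in the fit (0.0615).

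Slc15a1, the proton-coupled carrier of dipeptides and tripeptides known from the gut (PEPT1), read 9.44, 9.43 and 9.37 with the control vector and 8.27, 8.08 and 8.12 with FLAG-CTCFL. It fell by 1.25 ± 0.05 on the log2 scale (2.39-fold; adjusted p = 2.49e-09), more than any other member. Slc7a3, which codes for the cationic amino acid carrier CAT3 of arginine and lysine, read 12.51, 12.56 and 12.50 against 11.62, 11.34 and 11.38, with no overlap between groups. It fell by 1.08 ± 0.06 (2.11-fold; adjusted p = 4.33e-08). Slc7a3 lies on chromosome X among genes that were lower as well, with a median of -0.58 over its neighbours, and Slc15a1 lies on chromosome 14, where the neighbours' median was -0.18. What the neighbourhood contributed was not tested.

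The carriers usually linked to leucine and glutamine uptake showed small differences that did not pass. Slc3a2, the heavy chain that brings several exchangers to the cell surface, read 12.89, 12.91 and 12.91 in controls and 13.03, 12.92 and 12.94 in FLAG-CTCFL cells, a difference of 0.06 (95% interval -0.04 to 0.15). Its light chain Slc7a5 (LAT1) read 12.23, 12.36 and 12.26 against 12.47, 12.29 and 12.19. The groups overlapped, and the difference was 0.03 (-0.11 to 0.17). For the glutamine carrier Slc1a5 the difference was -0.07 (-0.22 to 0.08) and for the arginine carrier Slc7a1 it was -0.04 (-0.19 to 0.10). Without FLAG-CTCFL replicate 1, Slc1a5 (-0.16, adjusted p = 0.0371) and the glutamine carrier Slc38a1 (-0.21, adjusted p = 0.00269) passed. Slc38a2, a system A carrier that starved cells are known to induce, differed by 0.14 (adjusted p = 0.0967), and passed after quantile normalization (0.17, adjusted p = 0.00726) and without FLAG-CTCFL replicate 2 (0.18, adjusted p = 0.0263). Slc7a7, which joins the heavy chain in system y+L, read 10.22, 10.16 and 10.03 in the control vector cells against 10.19, 10.16 and 10.20 with FLAG-CTCFL. Its difference was 0.05 (-0.06 to 0.16), and its neighbours on chromosome 14 had a median of -0.51. With all arrays Slc38a1 differed by -0.14 and did not pass. The remaining members that did not pass, among them the glycine carrier Slc6a9 (0.0039) and the lysosomal arginine sensor Slc38a9 (0.03), lay between -0.12 and 0.07. A second probe set of Slc38a9 differed by 0.22, with adjusted p = 0.0260 among all probe sets.

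Sugar carriers were divided. Slc2a1, the basal glucose carrier GLUT1, read 13.38, 13.43 and 13.44 with the control vector and 13.58, 13.56 and 13.54 with FLAG-CTCFL, with the groups apart. It rose by 0.14 ± 0.04 (adjusted p = 0.0186), a call lost without control replicate 1 (adjusted p = 0.0861) or 2 (0.0549) and with a variance trend (0.0589). Slc37a1, an exchanger of glucose 6-phosphate and phosphate in the endoplasmic reticulum (ER), read 9.56, 9.54 and 9.54 against 8.76, 8.89 and 8.80 and fell by 0.73 ± 0.05 (adjusted p = 7.40e-08). Slc2a8, the intracellular glucose carrier GLUT8, fell by 0.32 and Slc45a4 by 0.29. Slc37a3 (0.0031) and Slc50a1 (0.02) did not pass. In all 3 of 6 members were lower (50%) and 1 higher (16.7%), after quantile normalization as well. With the deposited values 34.5% of all genes with a control mean of at least 9 were lower and 16.1% higher.

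**Figure D2:**
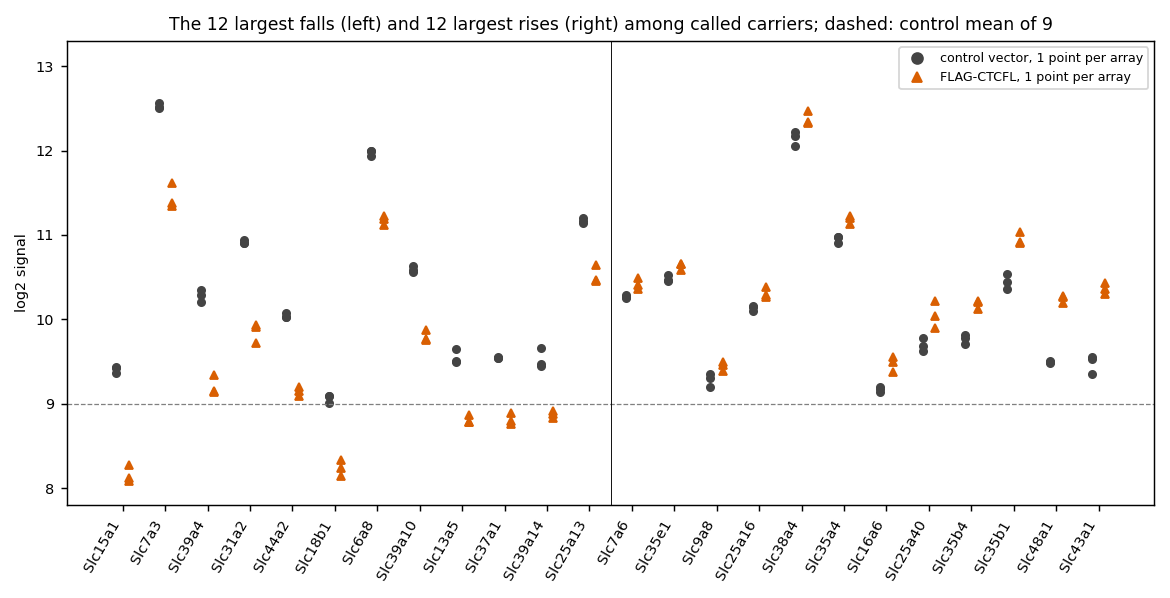
Log2 signal (y axis) in each array for the 12 largest falls and the 12 largest rises among called members, with 1 point per array, circles for the control vector and triangles for FLAG-CTCFL. Only called members whose arrays did not overlap between groups were drawn, so that the groups stand apart follows from this choice. The largest difference of group means among the falls was that of Slc15a1 (1.25) and among the rises that of Slc43a1 (0.89).

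The class of nucleoside, choline and vitamin carriers held falls and no rises. In limma 9 of its 12 members fell (75%) and 0 rose (median -0.29), and 8 were lower and 0 higher after quantile normalization. With the deposited values 34.5% of all genes with a control mean of at least 9 fell and 16.1% rose. All 5 members of the nucleoside families Slc28 and Slc29 were lower. Slc29a1 (ENT1), the main equilibrative carrier of nucleosides, read 11.44, 11.46 and 11.45 in controls and 11.06, 10.95 and 10.97 in FLAG-CTCFL cells, a fall of 0.46 ± 0.04 (adjusted p = 3.34e-06). Slc29a3, its lysosomal relative, fell by 0.45, Slc29a2 by 0.30 and the sodium-coupled Slc28a1 by 0.28. Slc29a4 fell by 0.16 (adjusted p = 0.0229). Quantile normalization ended its call (adjusted p = 0.126), as did leaving out any control array (0.0612 to 0.0757) or FLAG-CTCFL replicate 3 (0.122). Slc43a3, a carrier of purine nucleobases, fell by 0.25.

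Both choline carriers of the class fell. Slc44a2 read 10.08, 10.03 and 10.03 in the control vector cells against 9.20, 9.15 and 9.09 with FLAG-CTCFL. It fell by 0.90 ± 0.04 (1.86-fold; adjusted p = 8.53e-09). Slc44a1 read 11.36, 11.36 and 11.36 with the control vector and 11.08, 10.83 and 10.95 with FLAG-CTCFL and fell by 0.41 ± 0.06 (adjusted p = 9.28e-05), and a second probe set of it was lower by 0.55. Slc23a2, the sodium-coupled carrier of ascorbate, fell by 0.51 ± 0.05 (adjusted p = 2.02e-06). The folate carriers Slc19a1 (-0.03, 95% interval -0.12 to 0.07) and Slc46a1 (-0.03, -0.12 to 0.07) and the thiamine carrier Slc19a2 (-0.01, -0.11 to 0.08) did not pass.

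Metal carriers held some of the largest falls and the second largest rise. Among 17 such genes 9 fell (52.9%) and 1 rose (5.88%), with a median of -0.28. Of all genes with a control mean of at least 9, 34.5% fell and 16.1% rose. The median of the metal class moved with the rule for members. It was -0.05 with a FLAG-CTCFL mean of at least 9 (6 lower and 2 higher of 15). With a control mean of at least 8 it was -0.06 (10 lower and 3 higher of 26). After quantile normalization 9 were lower and 5 higher, so the falls outnumbered the rises less, as rises became more common over all genes too. In the Slc39 family, whose members bring zinc into the cytosol, 5 of 7 were lower and 0 higher in limma. In the Slc30 family, which moves zinc out of the cytosol, 1 of 4 was lower and 0 higher, and with quantile normalization Slc30a5 and Slc30a7 rose by 0.16 each.

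Slc39a4 (ZIP4), a plasma membrane zinc importer known to be regulated by zinc, read 10.35, 10.29 and 10.20 in controls and 9.34, 9.15 and 9.14 in FLAG-CTCFL cells. It fell by 1.07 ± 0.06 (adjusted p = 2.2e-08). Slc39a10 (ZIP10) read 10.56, 10.63 and 10.59 in the control vector cells against 9.88, 9.76 and 9.77 with FLAG-CTCFL, and fell by 0.79 ± 0.05 (1.73-fold; adjusted p = 3.81e-08). Both genes had no overlap between groups. Slc39a14, an importer of zinc, iron and manganese, fell by 0.65 ± 0.06 and lies on chromosome 14 among neighbours with a median of -0.42. Slc39a1, whose second probe set was lower by 0.41, fell by 0.35 and Slc39a6 by 0.34. The family members of the ER and Golgi did not pass. Slc39a7 differed by 0.12 (adjusted p = 0.107) and Slc39a9 by 0.13 (adjusted p = 0.0633), and after quantile normalization both rose, by 0.19 and 0.20. Without FLAG-CTCFL replicate 2 both passed as well (0.17 each, adjusted p = 0.00733 and 0.00787), as did Slc30a5 (0.14, adjusted p = 0.0340). Whether they differ from the other members was not tested.

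Slc31a2 (CTR2), a copper carrier of endosomes and lysosomes, read 10.91, 10.94 and 10.91 with the control vector and 9.91, 9.93 and 9.72 with FLAG-CTCFL. It fell by 1.07 ± 0.06 (adjusted p = 1.2e-08). Its neighbour Slc31a1 (CTR1), the main copper importer, differed by -0.12 (95% interval -0.24 to 0.0016; adjusted p = 0.137). Slc41a1, a magnesium carrier, fell by 0.37, as did Slc49a4, placed here with the haem carrier family. Slc48a1, which moves haem out of endosomes and lysosomes, read 9.49, 9.51 and 9.48 in controls and 10.26, 10.19 and 10.28 in FLAG-CTCFL cells. It rose by 0.75 ± 0.04 (1.68-fold; adjusted p = 2.88e-08). The vesicular zinc carrier Slc30a2 fell by 0.28, and Slc30a9 (-0.05) and the iron carrier Slc11a2 (0.02) did not pass.

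Mitochondrial carriers of the Slc25 family, which exchange metabolites and nucleotides across the inner membrane, fell more often than they rose. Of 20 members 11 fell (55%) and 4 rose (20%), with a median of -0.14. Of all genes with a control mean of at least 9, 34.5% fell and 16.1% rose. After quantile normalization 8 of the 20 fell and 6 rose. Slc25a13 (citrin), an exchanger of aspartate and glutamate in the malate-aspartate shuttle, read 11.20, 11.16 and 11.14 in the control vector cells against 10.64, 10.45 and 10.47 with FLAG-CTCFL. It fell by 0.65 ± 0.05 (1.56-fold; adjusted p = 9.33e-07). Its paralog Slc25a12 (aralar) differed by -0.18 (95% interval -0.33 to -0.02; adjusted p = 0.0884). It passed without FLAG-CTCFL replicate 1 (-0.28, adjusted p = 0.000673) and with the replicate number as a block (0.0299). The difference between both paralogs was not tested.

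Slc25a4, the adenine nucleotide carrier ANT1, read 11.93, 11.97 and 11.88 against 11.33, 11.30 and 11.24 and fell by 0.64 ± 0.04 (adjusted p = 1.89e-07). Its paralog Slc25a5 (ANT2) read 13.67, 13.64 and 13.70 against 13.71, 13.49 and 13.69, so its groups overlapped, and differed by -0.04 (95% interval -0.16 to 0.09). The other probe sets of Slc25a5 differed by -0.16 and -0.19 without passing. Near-identical copies of this gene exist in the genome, so its signal may hold more than 1 locus. Slc25a20, the carnitine-acylcarnitine carrier of fatty acid oxidation, fell by 0.53 ± 0.05 (adjusted p = 2.08e-06), and the citrate carrier Slc25a1 by 0.34 ± 0.04 (adjusted p = 4.26e-05).

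Falls of 0.20 to 0.27 were measured for Slc25a46, a protein of the outer membrane, Slc25a36, a pyrimidine nucleotide carrier, Slc25a51, the NAD carrier, and Slc25a15, the ornithine carrier. Falls of 0.13 to 0.15 in Slc25a39, Slc25a23 and Slc25a32 did not pass after quantile normalization (adjusted p = 0.321, 0.156 and 0.226). They also depended on single arrays: without FLAG-CTCFL replicate 3 the adjusted p was 0.186, 0.0568 and 0.110, and without control replicate 2 or 3 it lay between 0.0697 and 0.107. Without control replicate 1 it was 0.0872 for Slc25a39 and 0.0915 for Slc25a32. Slc25a40, a relative of Slc25a39, rose by 0.36 ± 0.07 (adjusted p = 0.00143), and a second probe set of it was higher by 0.34. Its neighbours had a median of -0.19. Slc25a16 (0.18) and the iron carrier mitoferrin-2, Slc25a28 (0.14), rose as well. The call of Slc25a28 was lost without control replicate 1 (adjusted p = 0.0566) or 2 (0.103) and without FLAG-CTCFL replicate 3 (0.0671). The phosphate carrier Slc25a3 rose by 0.15 (adjusted p = 0.0389), and lost the call without any of the control arrays or without FLAG-CTCFL replicate 1 or 3 (adjusted p between 0.0628 and 0.128). The members that did not pass lay between -0.18 and 0.10.

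Carriers of the Golgi and ER were the class with the largest share of rises (33.3%). Of all genes with a control mean of at least 9, 16.1% rose and 34.5% fell. In the Slc35 family, which brings nucleotide sugars and related nucleotides into these compartments for glycosylation, 4 of 12 members rose and 3 fell, with a median of 0.06. After quantile normalization 8 rose and 2 fell. That scaling also moved the share of rises among the calls over all genes, from 40.5% to 54.4%, so the added rises are not particular to this class. Slc35b1, which is known to exchange ATP for ADP across the ER membrane, read 10.54, 10.44 and 10.36 with the control vector and 11.04, 10.90 and 10.92 with FLAG-CTCFL. It rose by 0.50 ± 0.05 (1.42-fold; adjusted p = 9.83e-06). Slc35b4, a carrier of UDP-xylose and UDP-N-acetylglucosamine on chromosome 6, rose by 0.41 ± 0.05 (adjusted p = 1.76e-05). Slc35a4 rose by 0.23 (0.34 in its second probe set) and Slc35e1 by 0.15, a call lost without control replicate 1 (adjusted p = 0.0607) or 3 (0.0736).

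Slc35f5 read 10.11, 10.14 and 10.01 in controls and 9.58, 9.53 and 9.61 in FLAG-CTCFL cells and fell by 0.51 ± 0.05 (adjusted p = 2.22e-06). Slc35a3, the Golgi carrier of UDP-N-acetylglucosamine, fell by 0.24, and Slc35g1 by 0.19. With quantile normalization Slc35g1 did not pass (adjusted p = 0.0774). The sialic acid donor carrier Slc35a1 (0.03), Slc35c2 (0.07), Slc35e2 (0.06), Slc35f2 (-0.07) and Slc35f6 (0.07) did not pass. Of these, all but Slc35f2 rose after quantile normalization, by 0.11 to 0.15.

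**Figure D3:**
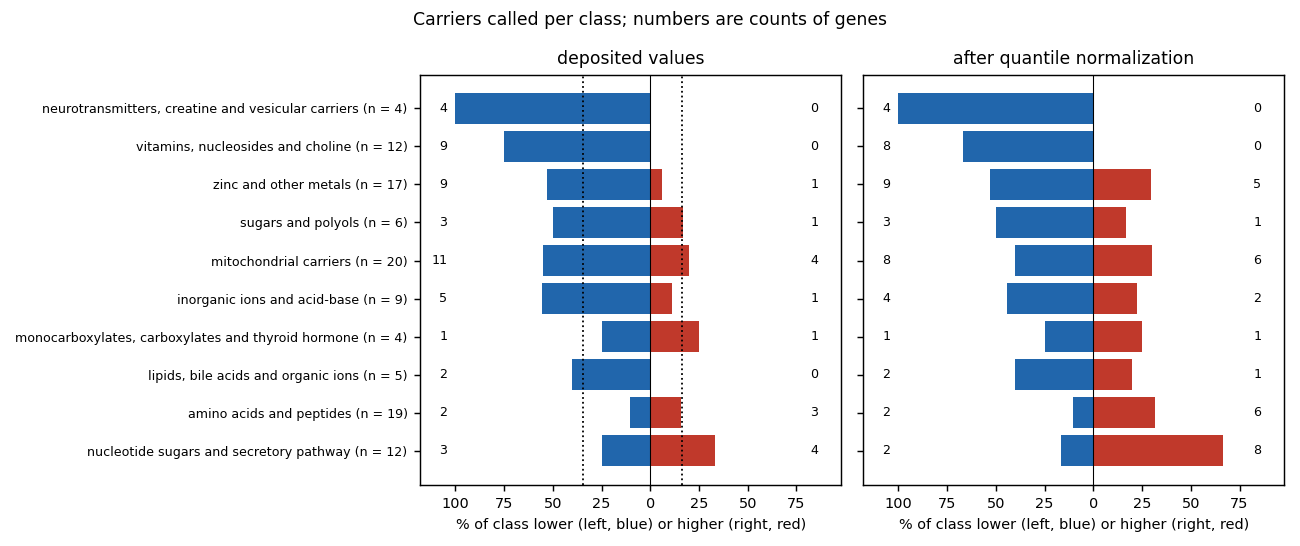
Share of each substrate class (x axis, percent) that was lower (blue, left) or higher (red, right) in FLAG-CTCFL cells, with counts beside the bars, for the deposited values and after quantile normalization. Dotted lines in the left panel mark 34.5% lower and 16.1% higher among all genes with a control mean of at least 9. Rises in the nucleotide sugar class went from 4 to 8 and in the metal class from 1 to 5, while the counts of falls moved by at most 3. The right panel has no such lines. Over all genes the share of rises among the calls went from 40.5% to 54.4% with quantile normalization.

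Carriers of inorganic ions fell in 5 of 9 cases (55.6%) and rose in 1 (11.1%), beside 34.5% and 16.1% of all genes at that level, with a median of -0.12. With a control mean of at least 8 the class had 7 lower and 5 higher of 22, with a median of -0.02. The phosphate carriers Slc20a1 and Slc20a2, which also serve as retrovirus receptors, both fell by 0.27. Slc20a1 read 11.66, 11.69 and 11.61 against 11.42, 11.31 and 11.43. Slc4a11 fell by 0.39 ± 0.05 (adjusted p = 2.83e-05) and the potassium-chloride cotransporter Slc12a7 by 0.32 ± 0.05 (adjusted p = 0.000172). The mitochondrial sodium-calcium exchanger Slc8b1 fell by 0.12 (adjusted p = 0.0405). It did not pass with quantile normalization (adjusted p = 0.331), with the replicate block (0.0679) or in any fit that left out 1 array (0.0604 to 0.142) except that without FLAG-CTCFL replicate 1. Slc9a8, a sodium-proton exchanger of the Golgi, rose by 0.16 (adjusted p = 0.0265), and lost the call without control replicate 2 (0.151) or 3 (0.0590) and without FLAG-CTCFL replicate 1 (0.0700) or 3 (0.0848). Slc12a4 (-0.10), Slc12a2 (0.06) and Slc26a2 (0.04) did not pass.

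Among carriers of carboxylates, Slc13a5, the plasma membrane carrier of citrate (NaCT), read 9.49, 9.65 and 9.51 in the control vector cells against 8.87, 8.78 and 8.78 with FLAG-CTCFL. It fell by 0.74 ± 0.05 (adjusted p = 1.64e-07). Of the lactate carriers, Slc16a1 (MCT1) read 11.08, 11.14 and 11.01 against 11.15, 11.01 and 11.12, a difference of 0.02 (95% interval -0.09 to 0.13), and Slc16a3 (MCT4) differed by -0.12 (adjusted p = 0.0522). Slc16a6, a carrier of ketone bodies, rose by 0.30 ± 0.05 (adjusted p = 0.000368). Embigin, Emb, a chaperone of monocarboxylate carriers, fell by 0.67 ± 0.08 (adjusted p = 2.58e-05), whereas basigin, Bsg, the usual chaperone of MCT1 and MCT4, differed by -0.08 (adjusted p = 0.198). Of the partner genes on the list 5 of 6 were measured, and 2 were lower and 0 higher in limma. Of all genes with a control mean of at least 9, 34.5% were lower and 16.1% higher. Besides Emb, the other lower partner was Atp1b1, a subunit of the sodium pump (-0.45).

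Where 34.5% of all genes with a control mean of at least 9 were lower, all 4 members of the class of creatine, taurine and vesicular carriers fell. This rests on the level that made members: with a control mean of at least 8 the class had 5 lower and 4 higher of 11, with a median of 0.10. Slc6a8, the creatine carrier, read 11.99, 11.94 and 12 with the control vector and 11.22, 11.19 and 11.12 with FLAG-CTCFL. It fell by 0.80 ± 0.04 (1.74-fold; adjusted p = 2.20e-08) and lies on chromosome X among neighbours with a median of -0.58. The vesicular polyamine carrier Slc18b1 read 9.09, 9.01 and 9.09 against 8.33, 8.24 and 8.15 and fell by 0.82 ± 0.05 (adjusted p = 7.75e-08). It stood just inside that level with the control vector and had a mean of 8.24 with FLAG-CTCFL. The taurine carrier Slc6a6 fell by 0.49 and the lysosomal sialic acid carrier Slc17a5 by 0.44. Among carriers of lipids and organic ions, Slc27a2, a fatty acid carrier with acyl-CoA synthetase activity, read 10.08, 10.17 and 10.07 against 9.62, 9.40 and 9.60 and fell by 0.57 ± 0.06 (adjusted p = 7.40e-06), and the organic cation exporter Slc47a1 fell by 0.25. Slc27a4 (0.12), Slc27a1 (0.01) and Slc10a7 (-0.0047) did not pass, and Slc27a4 rose by 0.19 after quantile normalization and by 0.14 without FLAG-CTCFL replicate 2 (adjusted p = 0.0229).

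Few members lay among lower genes when the cut was set at a neighbours' median of -0.2. Chromosomes 6, 14 and X were set apart because earlier results of these data showed stretches of lower expression there, which leans their counts towards falls. They hold 10 members, 6 of them lower (60%) and 1 higher (10%). Of genes on any chromosome with a control mean of at least 9, 34.5% were lower and 16.1% higher. For each member the median log2 fold change of up to 20 neighbours was taken, the nearest 10 on each side with a mean signal above the median of all genes. It was -0.2 or lower for 4 members, Slc7a3, Slc6a8, Slc39a14 and Slc7a7, of which the first 3 fell. Slc25a40 (-0.19) and Slc15a1 (-0.18) lay just short of the cut. The share of all genes that pass it was not counted. Without the members on those chromosomes 43 of 98 fell (43.9%) and 14 rose (14.3%), with a median of -0.10.

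**Figure D4:**
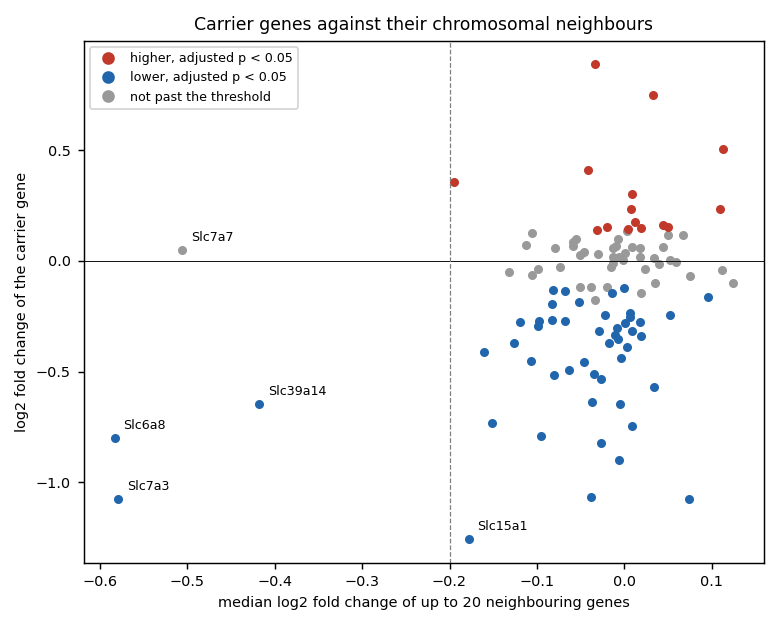
Log2 fold change of each of the 108 carrier genes (y axis) against the median log2 fold change of its chromosomal neighbours (x axis), coloured by the limma call. The dashed line marks a neighbours' median of -0.2, and 4 carriers lie left of it, 3 of them lower and Slc7a7 near 0.

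Carriers of SLC families whose symbols do not begin with Slc were read for comparison. They were not held to a signal level, and their control means went down to 7.41. Of 33 listed 30 were measured, of which 7 fell (23.3%) and 5 rose (16.7%), beside 18.4% and 12.5% of all genes tested (median -0.0062). Among the 19 above the median signal of all genes 6 fell and 4 rose (median -0.04). Magt1, linked to magnesium transport and glycosylation and located on chromosome X, fell by 0.79 ± 0.06. Sfxn1, the mitochondrial serine carrier, read 11.57, 11.67 and 11.66 against 11.09, 10.99 and 11.03 and fell by 0.59 ± 0.05 (adjusted p = 5.13e-07). Ctns, the lysosomal cystine carrier, fell by 0.42, Sfxn3 by 0.34, the Golgi manganese carrier Tmem165 by 0.23 and Nipal2 by 0.21. Mtch1, a carrier relative of the outer mitochondrial membrane, rose by 0.50 ± 0.04 (adjusted p = 1.30e-06), Letmd1 by 0.37, the lysosomal lysolipid carrier Spns1 by 0.28, Mfsd5 by 0.25 and Mfsd2a by 0.15. The call of Mfsd2a was lost without control replicate 1 (adjusted p = 0.157) or 2 (0.130) and without FLAG-CTCFL replicate 2 (0.0770) or 3 (0.0921). Mpc1, a subunit of the mitochondrial pyruvate carrier, fell by 0.25 (adjusted p = 0.0350), but its groups overlapped, and the call was lost without any of the control arrays or without FLAG-CTCFL replicate 2 or 3 (adjusted p between 0.0707 and 0.126).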

How the data were processed

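The 6 arrays carried labelled cDNA from 200 ng of total RNA, per the labels' protocols. The deposited table gives 1 log2 signal per probe set and array. The authors' normalization, software and array build were not given in the sources used here, and the deposited values were taken as they stand. Array medians were 7.92 to 7.99. The SD of the signals was 1.45 to 1.47 in control arrays and 1.47, 1.41 and 1.44 in FLAG-CTCFL replicates 1, 2 and 3. For each FLAG-CTCFL array the difference from the control mean was taken over genes with a control mean of at least 9. Its median was 0.006, -0.107 and -0.04 in replicates 1, 2 and 3. What this spread contributed to the falls was not tested.

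Of 34760 probe sets, 21640 had 1 gene symbol in the platform annotation, 1321 several and 11799 none. Names were updated by Entrez ID for 21553. The brightest probe set stood for each gene, which left 19937 genes. They were fitted with limma 3.58.1 in R 4.3.3 (lmFit, eBayes, 2 groups without covariates), and p-values were adjusted by Benjamini and Hochberg over all genes. A gene was called at an adjusted p under 0.05. Errors are moderated SEs with n = 3 per group, and intervals are 95% intervals. The fit was tested on simulated data with 200 changed genes. It recovered 92% of changes of 0.25 and 100% of changes of 0.5, 1 and 2 (log2), and 6.67% of its calls were false. The simulated noise was independent between genes and held no shifts of whole arrays. In the data 30.9% of genes were called, so these rates need not hold for them.

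The members, the substrate classes and the lists of markers, partners and carriers with other names were chosen with earlier results of these data known. All members are named or counted by class. Array values are given for those with the largest changes and for carriers of main nutrients. Signals of different probe sets were not compared. Alternatives were quantile normalization, subtraction of array medians, a replicate block, array weights, a variance trend with robust fitting, a filter at the median signal, a fit of every probe set, averaging over each gene's probe sets, each array left out in turn and other rules for membership. Figures were drawn with matplotlib 3.10.9. No genome or protein table was used here.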

Additional observations from a re-analysis of the deposited data

How the results depend on the processing

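Of the 64 calls on members, 52 held in all 14 other fits (9 higher, 43 lower). The 12 that did not are Slc25a23, Slc25a28, Slc25a3, Slc25a32, Slc25a39, Slc29a4, Slc2a1, Slc35e1, Slc35g1, Slc7a6, Slc8b1 and Slc9a8. No named gene changed sign where it was called. Small changes near the threshold are what 3 arrays a group limit most, and the cause of the shifts below was not tested unless the setting itself gives it.

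Quantile normalization gave 30 members higher and a median of -0.04 (-0.0372), with 8 amino acid carriers called. Array weights called 11 amino acid carriers and 91 dim Slc genes, against 5 and 60. This fit leaned on 1 array of the FLAG-CTCFL group. The weight of its replicate 3 was 5.77, against 0.41 and 0.32 for replicates 1 and 2 and 0.98 to 1.24 for the control arrays. With each array left out in turn, 10 to 20 members were higher and 44 to 52 lower, and the median lay between -0.13 and -0.08.

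By construction, other rules called fewer or more members. At a minimum change of 1.5-fold 2 were higher and 13 lower. Called were then 3 amino acid, 2 mitochondrial, 2 creatine and vesicular, 5 metal and 0 ion, lipid or nucleotide sugar carriers, and 1 each of the carboxylate, sugar and vitamin classes. With a FLAG-CTCFL mean of at least 9, 20 of 100 were higher and 36 lower, the median was -0.0272, and 1 carboxylate and 2 sugar carriers were called. At a control mean of at least 8, 35 of 194 were higher and 70 lower, with a median of -0.0272. Called were 11 amino acid (5 higher), 12 ion (5 higher), 5 lipid (2 higher), 9 creatine and vesicular (4 higher) and 11 nucleotide sugar carriers (7 higher). At 10, 8 were higher and 25 lower. Called were 3 amino acid, 3 ion, 1 lipid, 8 mitochondrial, 0 carboxylate, 2 sugar, 4 vitamin and 4 metal carriers. Without chromosomes 6, 14 and X, 3 amino acid and 2 creatine and vesicular carriers were called. Without these and without members with a FLAG-CTCFL mean under 9, a setting chosen after seeing the data, 32 were lower, with a median of -0.0353. Called were 3 amino acid, 1 carboxylate, 1 creatine and vesicular and 2 sugar carriers.

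Same-numbered arrays of both groups did not deviate together (r = 0.134, -0.204 and -0.021 across genes), so the numbers were not taken to pair the samples. With the replicate number as a block 14 members were higher and 49 lower.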

Other observations

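Genes of zinc handling outside the carriers described above were read after the values of the zinc carriers had been seen. Mt1, a metallothionein that binds zinc and copper, read 11.79, 11.61 and 11.63 with the control vector and 12.92, 12.74 and 12.72 with FLAG-CTCFL, and rose by 1.12 ± 0.06 (SE, n = 3 per group; limma adjusted p = 2.33e-08). Over the other fits its difference lay between 1.06 and 1.18. Mt2 rose by 0.54 ± 0.04 (adjusted p = 6.25e-07). Mt3 rose by 0.16 (adjusted p = 0.0292), with an adjusted p of up to 0.122 in other fits. Mtf1, the zinc-sensing transcription factor, rose by 0.19 (adjusted p = 0.00339). Slc30a1, the plasma membrane zinc exporter, read 8.68, 8.76 and 8.76 in controls, just under the level for members, and 9.32, 9.28 and 9.27 with FLAG-CTCFL. It rose by 0.55 ± 0.04 (adjusted p = 5.13e-07). For all of these genes the arrays of both groups did not overlap. Arrays without overlap were common: 3658 of all 19937 genes lay higher and 4584 lower in this way. Among genes with a control mean of at least 9 the share was 59.8% in either direction.

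The 239 Slc genes under a control mean of 9 had 37 higher (15.5%) and 23 lower (9.62%), with a median of 0.02, beside 12.5% and 18.4% of all genes tested. Choosing genes by a low control mean leans these counts towards rises. Among them, also named after their values were seen, Slc6a19, a neutral amino acid carrier of gut and kidney, rose by 0.91 ± 0.05, and Slc22a23 rose by 0.78 ± 0.06. Slc6a15, a neutral amino acid carrier of brain, fell by 0.88 ± 0.05, and Slc17a9, the vesicular nucleotide carrier, fell by 0.77 ± 0.06. Slc2a3, the glucose carrier GLUT3, which the rule left out, had a control mean of 13.49.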
